A study of Mus musculus with 10 samples.

Results

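Described here are 9 transcripts that neutrophils make in quantity or that mark mature neutrophils, out of 55385 mouse genes in the deposited table. They are the calprotectin subunits S100a8 and S100a9, the related S100 genes S100a6 and S100a11, the secreted factors Retnlg, Wfdc17, Wfdc21 and Chil3, and the lipolysis inhibitor G0s2. They were chosen by symbol, with earlier results of these data known. Each symbol matched 1 row of the table through GENCODE M21, and all 9 passed the filter on low values (a mean of at least 5 CPM, the scaled read count defined below, over the 10 libraries). The description as abundant held for 7 of them, which were above 100 CPM in every library. Wfdc21 and Chil3 were between 9.81 and 40.3 CPM in the naive libraries.

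The libraries are bulk RNA-seq of Tomato+ neutrophils sorted from grafted squamous cell carcinomas (SCC). All hosts were CatchupIVM-red mice, in which the red Tomato reporter is tied to Ly6g, a gene of mature neutrophils, so every library depends on that reporter. The deposited column names carry C57 for all groups and GFP for the control grafts, neither of which is explained in the sources used here. Grafts were parental SCC cells with low Sox2 (control) or cells with high Sox2 (Sox2Hi), and tumours were either naive (untreated) or taken from mice given an antibody to PDL1 together with a CD40 agonist, an immunotherapy (treated). Each naive group had 3 libraries and each treated group had 2. The study asked whether Sox2 in tumour cells dampens how neutrophils respond to interferons. Doses, times, mouse ages, the number of tumour cell clones and any pooling of mice are not given in the sources used here. Nothing says whether libraries of a group came from separate mice, so the p-values measure only the spread between these libraries.

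S100A8 and S100A9 are small calcium-binding proteins that pair as calprotectin, fill much of the neutrophil cytosol, withhold zinc and manganese from microbes, and act outside the cell as danger signals through TLR4. S100A6 and S100A11 belong to the same family but are made by many cell types, epithelium included. Retnlg is a resistin-like secreted protein of neutrophils, WFDC17 and WFDC21 are small secreted proteins of the whey acidic protein family of protease inhibitors, CHIL3 (Ym1) is a chitinase-like protein of neutrophils and macrophages that does not cleave chitin, and G0S2 binds and blocks the lipase ATGL (gene Pnpla2).

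In GRCm38, S100a6 (chr3:90612882-90624181, plus strand), S100a8 (chr3:90668978-90670035, plus strand) and S100a9 (chr3:90692632-90695721, minus strand) lie close together in the S100 gene cluster, with S100a11 (chr3:93520488-93526287, plus strand) further along the same chromosome. Wfdc17 (chr11:83703991-83706268, plus strand) and Wfdc21 (chr11:83746940-83752642, plus strand) are also near each other. Retnlg is at chr16:48872621-48874496 (plus strand), G0s2 at chr1:193272161-193273217 (minus strand) and Chil3 at chr3:106147554-106167564 (minus strand). All 9 are annotated as protein coding, and none shares exon bases with another gene.

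Promoter sequences from RefSeq (GRCm38.p6) matched 8 of the 9 genes, Wfdc21 being the exception. The letters TATAAA, the core of a TATA box, occur on either strand within 250 bases before to 50 bases after the annotated start of S100a8, S100a9, Wfdc17 and Chil3, which is 4 of 8. The same window holds them in 13.6% of 32851 promoters. The 4 are printed because their genes were among the strong risers described next, with S100a11 beside them as a small riser without the letters. Each line runs 5′ to 3′ on the gene's strand from 100 bases before the RefSeq start to base 30 of the transcript, with TATAAA in capitals. S100a8 is from chr3:90668971-90669100 (plus strand), S100a9 from chr3:90695692-90695821 (minus strand), Wfdc17 from chr11:83703956-83704085 (plus strand), Chil3 from chr3:106167535-106167664 (minus strand) and S100a11 from chr3:93520396-93520525 (plus strand).
S100a8: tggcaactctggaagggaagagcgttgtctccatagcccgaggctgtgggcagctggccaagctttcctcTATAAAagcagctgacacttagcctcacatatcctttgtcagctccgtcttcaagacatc
S100a9: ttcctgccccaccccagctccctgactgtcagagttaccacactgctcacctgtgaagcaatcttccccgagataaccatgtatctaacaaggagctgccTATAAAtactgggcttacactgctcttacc
Wfdc17: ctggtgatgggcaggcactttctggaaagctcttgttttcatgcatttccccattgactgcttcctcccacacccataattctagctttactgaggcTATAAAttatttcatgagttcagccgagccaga
Chil3: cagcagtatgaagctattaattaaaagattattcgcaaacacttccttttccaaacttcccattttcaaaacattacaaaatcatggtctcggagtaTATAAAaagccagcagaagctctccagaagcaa
S100a11: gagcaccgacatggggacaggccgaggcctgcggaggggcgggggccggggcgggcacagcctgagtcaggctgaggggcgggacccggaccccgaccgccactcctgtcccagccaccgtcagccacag
TATAAA begins at position -30 from the annotated start in S100a8, at -3 in Wfdc17 and Chil3, and at position 1 in S100a9, so that in 3 of the 4 the RefSeq start lies at the letters themselves. The strong risers G0s2 and Retnlg have no TATAAA in the window. Other motifs were searched on both strands of the same window. The C/EBP letters TTGCNNAA were found in S100a9 and Retnlg (10.8% of all promoters), and GAGGAA, a core bound by PU.1, in S100a8, S100a11 and Wfdc17 (28.3% of all promoters). TTCNNNGAA, bound by STAT factors, was found in Chil3 alone among the 8 (8.30% of all promoters), and the core of the interferon-stimulated response element in none of the 8 (3.44% of all promoters). These matches are descriptions of the letters and no measure of binding.

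Libraries held 13815734 to 22986193 gene counts, and the 9 genes took 0.427% to 0.695% of them in naive and 1.17% to 2.58% in treated tumours. Levels are given as CPM, read counts per 1000000 counts of the 11274 genes tested, with library totals corrected by factors computed from those genes (the expressed-gene scaling). The factors ran from 0.743 to 0.744 for control treated and from 0.846 to 1.22 elsewhere. Of 12 neutrophil markers all were detected, their sum running from 12446 to 31687 CPM, but Ly6g itself was low (1.74 to 17.8 CPM). Markers of macrophages (781 to 1775 CPM summed over 10 genes) and keratinocytes (652 to 2833 CPM over 6) were present in every library. Ddx3y, a gene of the Y chromosome, had at most 8 reads in 4 libraries and at least 1007 in the other 6, with both kinds in each group. With a term for this, 9 and 7 of the 9 genes were called for treatment in control and Sox2Hi tumours, 0 between naive grafts, 7 between treated grafts and 0 in the interaction, where that fit called 55%, 17.4%, 12.6%, 18.8% and 18.9% of all genes tested in either direction.

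In control tumours all 9 genes were higher after treatment, from 1.41-fold for S100a6 to 11.1-fold for Chil3, where 24.1% of all genes tested, and 54.5% of the other genes of at least 100 CPM, were called higher. The rises of S100a6 and S100a11 depended on the scaling and on the test, with log2 differences of -0.049 and -0.041 when factors came from genes of at least 100 CPM. In Sox2Hi tumours 7 of them rose, where 15% of all genes tested were called higher, and S100a6 and S100a11 did not pass the test. Without Sox2Hi treated replicate 2, 3 of the 9 were called there, and 1.61% of all genes tested were called higher. Between the treated grafts 6 genes, both calprotectin subunits among them, were lower in the Sox2Hi libraries, where 5.87% of all genes tested were called lower, and this count went to 0 or 1 without any 1 treated library. None of the 9 was called by edgeR between the naive grafts, where 14% of all genes tested were called, but a replicate block within the naive libraries called 2 lower (13.7% of all genes tested) and limma-voom 6 lower (24.1% of them).

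S100a8 and S100a9 moved together and were higher in every treated library. S100a8 was measured at 1900, 1910 and 1218 CPM in the 3 control naive libraries, 10217 and 7539 in control treated, 1774, 1151 and 914 in Sox2Hi naive, then 3834 and 3582 in Sox2Hi treated. Every treated library lay above every naive one, and the Sox2Hi treated libraries lay between the naive and the control treated ones. S100a8 was higher after treatment by 2.41 on the log2 scale in control tumours (SE 0.30, 95% interval 1.75 to 3.06, edgeR adjusted p = 0.000222) and by 1.53 in Sox2Hi tumours (SE 0.29, 95% interval 0.88 to 2.18, edgeR adjusted p = 0.00782).

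S100a9 followed the same order. Its values were 1379, 1259 and 895 CPM in control naive, 7891 and 6519 in control treated, 1299, 770.1 and 693 in Sox2Hi naive, then 2887 and 2750 in Sox2Hi treated. Again the 4 treated libraries were above all naive ones with no overlap, and the control treated ones stood highest. The rise was 2.61 (SE 0.28, edgeR adjusted p = 0.000125) in control and 1.61 (SE 0.28, edgeR adjusted p = 0.00508) in Sox2Hi tumours on the log2 scale.

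The ratio of the calprotectin subunits does not depend on the library scaling. S100a8 made up 57.9%, 60.3% and 57.6% of the reads of the pair in control naive, 56.4% and 53.6% in control treated, 57.7%, 59.9% and 56.9% in Sox2Hi naive, then 57.04% and 56.57% in Sox2Hi treated. The control treated libraries were below all naive ones, while the Sox2Hi treated libraries overlapped the Sox2Hi naive ones. Averaged over the grafts the share was lower by 2.48 percentage points after treatment (treated minus naive -3.59 in control and -1.37 in Sox2Hi, exact two-sided permutation p = 0.03 over 100 arrangements within graft, where the smallest possible is 0.01). Leaving out a library gave differences of -3.18 to -1.78 and p from 0.0167 to 0.15, the highest without control treated replicate 2, and p was 0.05 or more without any 1 control or any 1 Sox2Hi treated library.

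**Figure D1:**
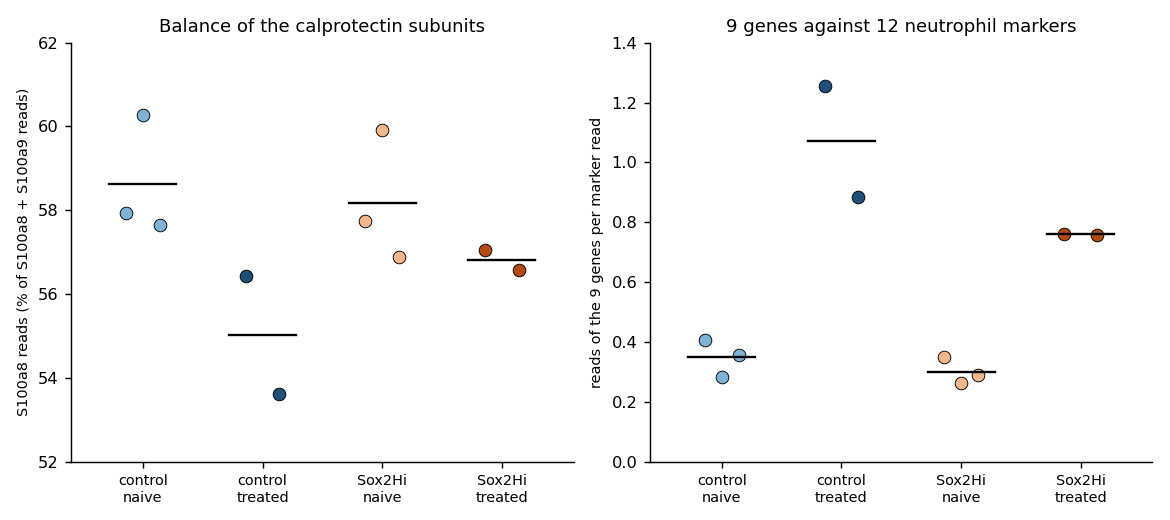
S100a8 reads as a percent of S100a8 plus S100a9 reads (left; the axis starts at 52%) and reads of the 9 genes per read of 12 neutrophil markers (right) in each library (points), with group means (bars; n = 3, 2, 3 and 2). The S100a8 share was 53.6% to 56.4% in control treated against 57.6% to 60.3% in control naive, and the right panel shows all 4 treated libraries above all naive ones.

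S100a6 and S100a11 had the smallest changes with treatment of the 9. S100a6 was at 725, 531 and 714 CPM in control naive libraries against 943 and 911 in control treated ones, and at 586, 508 and 599 in the Sox2Hi naive libraries against 578 and 623 after treatment. The control treated libraries were the highest, and the Sox2Hi groups overlapped. Its rise in control tumours was 0.50 on the log2 scale (SE 0.17, edgeR adjusted p = 0.0268) and the difference in Sox2Hi tumours was 0.09 (95% interval -0.29 to 0.47, edgeR adjusted p = 0.720). The control rise was not called by limma-voom (0.38, adjusted p = 0.0717) or by edgeR with only the 2 groups compared (0.50, adjusted p = 0.0738).

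S100a11, an annexin partner, was at 430, 356 and 364 CPM in control naive libraries against 548 and 540.0 in control treated ones. In Sox2Hi tumours it was at 382, 277 and 284 in naive and 319.9 and 398 in treated libraries. The control groups did not overlap and the Sox2Hi groups did. The rise in control tumours was 0.51 on the log2 scale (SE 0.18, edgeR adjusted p = 0.0324), against 0.19 in Sox2Hi tumours (95% interval -0.21 to 0.59, edgeR adjusted p = 0.449). Without control naive replicate 2, control naive replicate 3 or control treated replicate 1 the control rise was not called (edgeR adjusted p = 0.0508, 0.0780 and 0.0557). It was also not called with the replicate block on the title numbers (0.46, edgeR adjusted p = 0.0523) or by limma-voom (0.37, adjusted p = 0.133).

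The direction of the change in this pair turned with the scaling. The 1512 other genes of at least 100 CPM had a median change of 0.53 in control tumours, so S100a6 and S100a11 were -0.037 and -0.028 from that median, and with factors from genes of at least 100 CPM their changes were -0.049 and -0.041. S100a11 also shares 48.9% of its 31-base words with its processed copies Gm12854 and Gm7665, which were at most 1.09 and 0.0637 CPM.

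Retnlg was at 246, 165 and 111 CPM in control naive, 2202 and 1141 in control treated, 197, 199.99 and 104 in Sox2Hi naive, then 619.7 and 690.4 in Sox2Hi treated. All treated libraries were above all naive ones. Its rise was 3.26 in control (SE 0.38, edgeR adjusted p = 0.000170) and 1.97 in Sox2Hi tumours (SE 0.37, edgeR adjusted p = 0.00738) on the log2 scale. It shares 5.51% of its 31-base words with Retnla, which was at 14.4 to 44.8 CPM in naive and 2.03 to 22.8 CPM in treated libraries.

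Wfdc17 rose in both grafts. It was at 1761, 1281 and 997 CPM in control naive and rose to 11823 and 10244 in control treated, and at 1345, 814 and 726 in Sox2Hi naive it rose to 4426 and 5265 in Sox2Hi treated. No treated library overlapped a naive one. The changes were 3.04 (SE 0.31, edgeR adjusted p = 8.54e-05) in control and 2.33 (SE 0.30, edgeR adjusted p = 0.00112) in Sox2Hi tumours on the log2 scale. Its share of the reads of the 9 genes went from 21.5% to 25.7% in control naive to 33.5% and 36.5% in control treated, and from 19.6% to 22.3% in Sox2Hi naive to 32.3% and 36.8% in Sox2Hi treated, whereas S100a8 and S100a9 together kept 44.3% to 53.2% in all libraries.

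Wfdc21 rose in both grafts too. It was at 28.8, 22.4 and 15.0 CPM in control naive, 268 and 170.5 in control treated, 24.5, 11.9 and 9.81 in Sox2Hi naive, then 89.4 and 86.5 in Sox2Hi treated. The treated groups did not overlap the naive ones, and the control treated libraries were the highest. The rise was 3.32 (SE 0.38, edgeR adjusted p = 0.000152) and 2.51 (SE 0.38, edgeR adjusted p = 0.00261) on the log2 scale in control and Sox2Hi tumours.

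Chil3 gave the largest fold of the 9 in control tumours. It was at 22.4, 40.3 and 18.6 CPM in control naive libraries against 325 and 274 in control treated ones, and at 18.4, 18.8 and 12.04 in the Sox2Hi naive libraries against 69.5 and 242 after treatment. The treated libraries were all above the naive ones, and the Sox2Hi treated libraries were far apart. Its changes were 3.47 (SE 0.47, edgeR adjusted p = 0.000313) and 3.25 (SE 0.47, edgeR adjusted p = 0.00193) on the log2 scale in control and Sox2Hi tumours. The Sox2Hi value was 2.02 without Sox2Hi treated replicate 2 and 3.88 without replicate 1, and stayed called in both cases. The same replicate 2 was the higher for Ngp, a granule gene of immature neutrophils (85.0 and 339 CPM), and Camp, another (11.2 and 52.6 CPM). Chil3 shares 41.5% of its 31-base words with Chil4 and Gm6522, whose levels were at most 3.29 CPM and 1.54 CPM.

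G0s2 rose least of the 7 called in both grafts. It was at 364, 392 and 252 CPM in control naive libraries against 1038 and 723 in control treated ones, and at 417, 397 and 259.9 in the Sox2Hi naive libraries against 871 and 651 after treatment. Treated libraries were above all naive ones, and the treated grafts overlapped each other. The rise was 1.39 (SE 0.26, edgeR adjusted p = 0.00144) and 1.09 (SE 0.26, edgeR adjusted p = 0.0185) on the log2 scale in control and Sox2Hi tumours. The Sox2Hi rise was 0.86 to 1.22 and not called without Sox2Hi naive replicate 3, Sox2Hi treated replicate 1 or Sox2Hi treated replicate 2 (edgeR adjusted p = 0.0697 to 0.101).

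**Figure D2:**
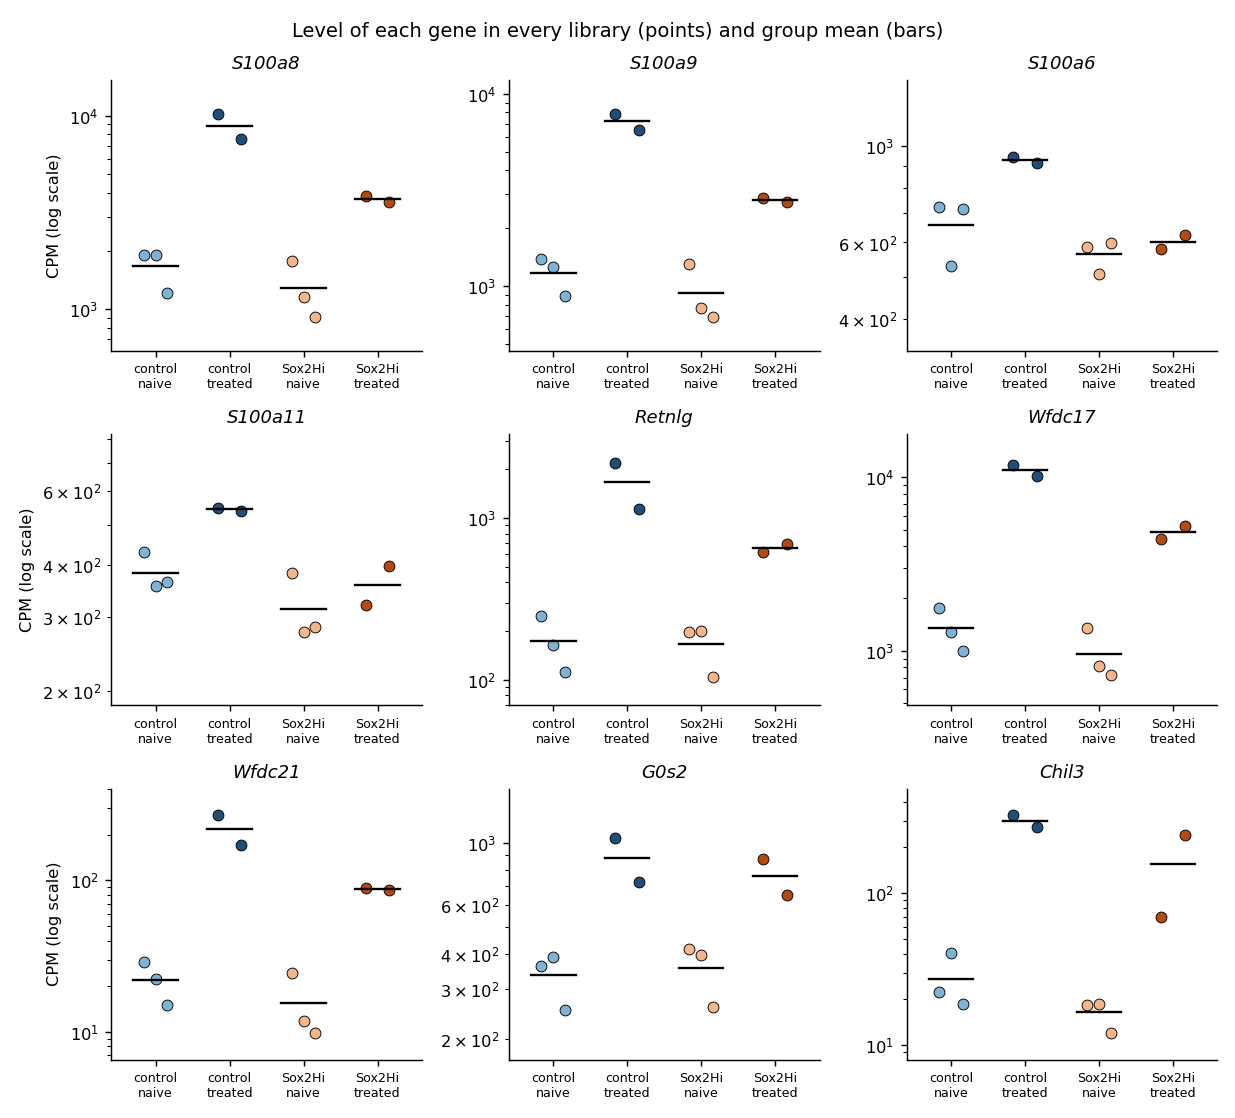
CPM (log axis, range set per gene) of each of the 9 genes in every library (points) and the group means (bars; n = 3 control naive, 2 control treated, 3 Sox2Hi naive, 2 Sox2Hi treated). For 7 genes every treated library is above every naive one, for example 3582 to 10217 against 914 to 1910 CPM for S100a8, while S100a6 and S100a11 stay within 508 to 943 and 277 to 548 CPM.

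In control tumours 24.1% of the genes tested were called higher (57.3% called in either direction, 33.1% lower), and 9 of the 9 described here were. Of the 1512 other genes of at least 100 CPM, 54.5% were called higher. The median change of the 9 was 2.61 on the log2 scale, against -0.18 over all genes tested. The all-gene scaling, with factors from 29648 genes, gave a median of 3.17 for the 9, called all 9, and called 34% of its genes, 18.7% higher and 15.3% lower. It moves the median of the abundant genes from 0.53 to 1.08. All treated libraries were above all naive ones for all 9 genes, as for 29.6% of the genes tested.

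In Sox2Hi tumours 15% of the genes tested were called higher (21.6% called in either direction, 6.57% lower), and 7 of the 9 were. The treated libraries lay above all naive ones for those 7, as for 37% of the genes tested. Among abundant genes outside the 9, 23.9% were called higher. The median change of the 9 was 1.61, against 0.09 over all genes tested and 0.15 over the abundant ones. With the all-gene scaling 6 were called, G0s2 being lost, where 3.61% of its genes were called, 1.79% higher and 1.82% lower. Without Sox2Hi treated replicate 2 only Wfdc17, Wfdc21 and Chil3 were called, where the remaining treated library is assumed to vary like the other groups.

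These libraries are bulk samples, so fewer cells of a type and less RNA per cell cannot be told apart. The summed level of the 12 neutrophil markers was higher after treatment in both grafts, but not every marker was. The sum was 12815 to 21077 CPM in control naive, 28098 to 31687 in control treated, 12446 to 17225 in Sox2Hi naive, then 17967 to 18867 in Sox2Hi treated. Most of those reads came from Il1r2, at a mean of 12447 CPM. In control and Sox2Hi tumours 10 and 4 of the 12 were called higher, where 24.1% and 15% of all genes tested were. In Sox2Hi tumours Cd177 (-0.53, edgeR adjusted p = 0.227) and Hdc (-0.16, edgeR adjusted p = 0.691) were below 0. The 9 genes gave 0.283 to 0.408 reads per marker read in control naive, 0.886 and 1.25 in control treated, 0.264 to 0.351 in the Sox2Hi naive libraries against 0.757 and 0.762 after treatment. All treated libraries were above all naive ones on this ratio. Il1r2 itself was not called with treatment (0.54, edgeR adjusted p = 0.0972, in control and 0.16, edgeR adjusted p = 0.671, in Sox2Hi tumours), so the ratio largely sets the 9 genes against a marker that was not called. S100a6 per marker read was 0.0252 to 0.0557 in control naive against 0.0287 and 0.0336 in control treated, and S100a11 was 0.0169 to 0.0284 against 0.0170 and 0.0195, both overlapping.

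Some markers of other cells were also called with treatment in control tumours, where 33.1% of all genes tested were called lower and 24.1% higher. Markers below the filter were not tested and could not be called. Of 6 fibroblast and endothelial markers, 5 of them tested, 4 were called lower (sum 275 to 746 CPM in naive, 96.3 and 119 in treated). Both tested erythroid markers, 2 of 3, were called lower (302 to 762 against 25.7 and 154), as were 2 of 6 keratinocyte markers (1007 to 2833 against 652 and 1425). Of 7 T and NK cell markers, 5 of them tested, 3 were called higher (44.0 to 77.1 against 106 and 370), as were 2 of 10 macrophage and monocyte markers (781 to 1205 against 857 and 1293). The keratinocyte and macrophage counts are near or below the shares over all genes. In Sox2Hi tumours, where 6.57% of all genes tested were called lower and 15% higher, 3 fibroblast and endothelial markers and 2 erythroid ones were called lower and 2 T and NK and 2 macrophage markers higher. Of the 4 mast cell markers 2 were tested, and both were called lower in control tumours. Of 4 eosinophil markers 2 were tested, and 1 was called lower in each graft. No dendritic or B and plasma cell marker was called with treatment, where 2 of 5 and 3 of 4 were tested. Of 61 markers in 10 lists, Ear1 of eosinophils was the one under 0.5 CPM in all libraries. The part of these cells in the results was not tested.

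The other S100 genes moved in both directions. Of 13, 7 passed the filter, and in control tumours 4 of them fell and 2 rose with treatment (median -1.001 on the log2 scale), while under the all-gene scaling 2 of 10 rose and none fell. Over all genes tested 33.1% were called lower and 24.1% higher in control tumours, and 6.57% and 15% in Sox2Hi tumours. S100a4, a family member of fibroblasts and motile cells, fell from 18.3 to 51.1 CPM in control naive to 13.5 and 19.0 in control treated, groups that overlap (log2 change -1.30, SE 0.40, edgeR adjusted p = 0.0174; -0.78 and adjusted p = 0.176 with the all-gene scaling). Fewer of the 7 were called without control treated replicate 2, which leaves 1 library in that group. The share of all genes called in that fit was not computed. In Sox2Hi tumours 1 of 7 rose and S100a4 was at -0.52 (edgeR adjusted p = 0.331).

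Of 9 tested genes for the receptors and signalling of extracellular calprotectin, 7 rose in control tumours, Cd36 (0.78) and Nlrp3 (0.43) not passing the test, and 2 rose in Sox2Hi tumours, Ly96 and Casp1. The medians were 1.302 and 0.67 on the log2 scale, and the all-gene scaling called 9 and 1 of 10. In control and Sox2Hi tumours 24.1% and 15% of all genes tested were called higher. Of the other genes of at least 100 CPM 54.5% and 23.9% were, so the Sox2Hi count is near the last of these shares. Tlr4, the receptor, was at 40.9, 49.2 and 27.3 CPM in control naive libraries against 132 and 99.9 in control treated ones (log2 change 1.57, SE 0.23, edgeR adjusted p = 0.000497). In Sox2Hi tumours it was at 50.2, 42.0 and 37.6 in naive and 68.4 and 73.9 in treated libraries (0.72, SE 0.23, edgeR adjusted p = 0.0504). Casp1, the inflammasome protease, rose in both (1.505 and 1.37 on the log2 scale). No library's treated value of Tlr4 or Casp1 overlapped the naive values of the same graft.

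Relatives of the secreted members moved in both directions. Over all genes tested 24.1% were called higher and 33.1% lower in control tumours, and 15% and 6.57% in Sox2Hi tumours. Among resistin and whey acidic protein genes 2 of 5 tested rose and 1 fell in control tumours, the fall being Wfdc2, an epithelial member of the family (12.6 to 15.4 CPM in naive, 2.38 and 5.48 in treated, log2 change -1.80, SE 0.41, edgeR adjusted p = 0.00391). In Sox2Hi tumours 2 of 5 rose. Of 3 chitinase-like genes tested, 2 rose and Chid1 fell in control tumours (-0.74, SE 0.20, edgeR adjusted p = 0.0086, and -0.21 with adjusted p = 0.457 under the all-gene scaling), and 1 rose in Sox2Hi tumours. Chil1, a chitinase-like protein that does not cleave chitin, rose by 3.70 on the log2 scale in control tumours (SE 0.34, edgeR adjusted p = 6.13e-05) and by 2.76 in Sox2Hi tumours (SE 0.33, edgeR adjusted p = 0.000765). Chil4, the closest relative of Chil3, was below the filter at 0.434 to 3.29 CPM. In control tumours it was also lower after treatment (1.52 to 3.29 CPM in naive, 0.434 and 0.834 in treated), and in Sox2Hi tumours its treated libraries were above the naive ones. Among the 3 tested, Chid1 was the one called against Chil3 in control tumours. Under the all-gene scaling 3 of 8 were called higher and 2 lower there, where 18.7% and 15.3% of its genes were. Fewer of the 3 were called without control treated replicate 2, which leaves 1 library in that group.

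Around G0s2, 7 of 10 lipolysis and lipid droplet genes rose in control and 3 in Sox2Hi tumours, with none lower. Of all genes tested 24.1% and 15% were called higher there, and of the other genes of at least 100 CPM 54.5% and 23.9%. The Sox2Hi count is near the last of these shares. The all-gene scaling called 8 and 2 of 14 higher. The target of G0s2, Pnpla2, was at 8.11 to 9.81 CPM in control naive libraries against 16.2 and 7.92 in control treated ones (0.46, edgeR adjusted p = 0.179), and at 7.38 to 10.3 and 14.2 and 16.8 in the Sox2Hi groups (0.77, edgeR adjusted p = 0.0655). Abhd5, the coactivator of that lipase, rose in control tumours (28.8 to 34.9 against 53.9 and 55.3 CPM, log2 change 0.79, SE 0.14, edgeR adjusted p = 0.00105) and was at 0.30 in Sox2Hi tumours (edgeR adjusted p = 0.142). Without Sox2Hi treated replicate 2 none of the 10 was called in Sox2Hi tumours.

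Of 11 genes of immature neutrophils 5 passed the filter, the granule genes Ngp, Camp, Ltf and Lcn2 and the transcription factor Cebpe. All 5 rose in control tumours and the 4 granule genes in Sox2Hi tumours, where Cebpe was at -0.11 (edgeR adjusted p = 0.845) and the all-gene scaling called 3 of 10, without Ngp (edgeR adjusted p = 0.0822). In control tumours the all-gene scaling called 7 of 10 higher. Ngp went from 7.57 to 22.8 CPM in control naive to 360.0 and 375 in control treated (log2 change 4.79, SE 1.05, edgeR adjusted p = 0.00319) and from 2.93 to 50.1 to 85.0 and 339 in Sox2Hi (3.47, SE 1.00, edgeR adjusted p = 0.0338). Camp rose by 3.84 and 3.66 on the log2 scale (edgeR adjusted p = 0.00388 and 0.0183). The granule genes of the earliest stages, Mpo and Elane, were below the filter, at group means of 1.401 to 2.28 and 0.0956 to 0.595 CPM. Of 26 mature neutrophil genes 23 rose in control and 12 in Sox2Hi tumours, with medians of 1.37 and 0.69 that are below those of the 9 genes, and the all-gene scaling called 25 and 7 of them higher. For both lists, the shares called higher over all genes tested were 24.1% and 15%. Over the other genes of at least 100 CPM they were 54.5% and 23.9%. Without Sox2Hi treated replicate 2, none of these 5 genes and 5 of the 26 mature genes were called in Sox2Hi tumours.

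**Figure D3:**
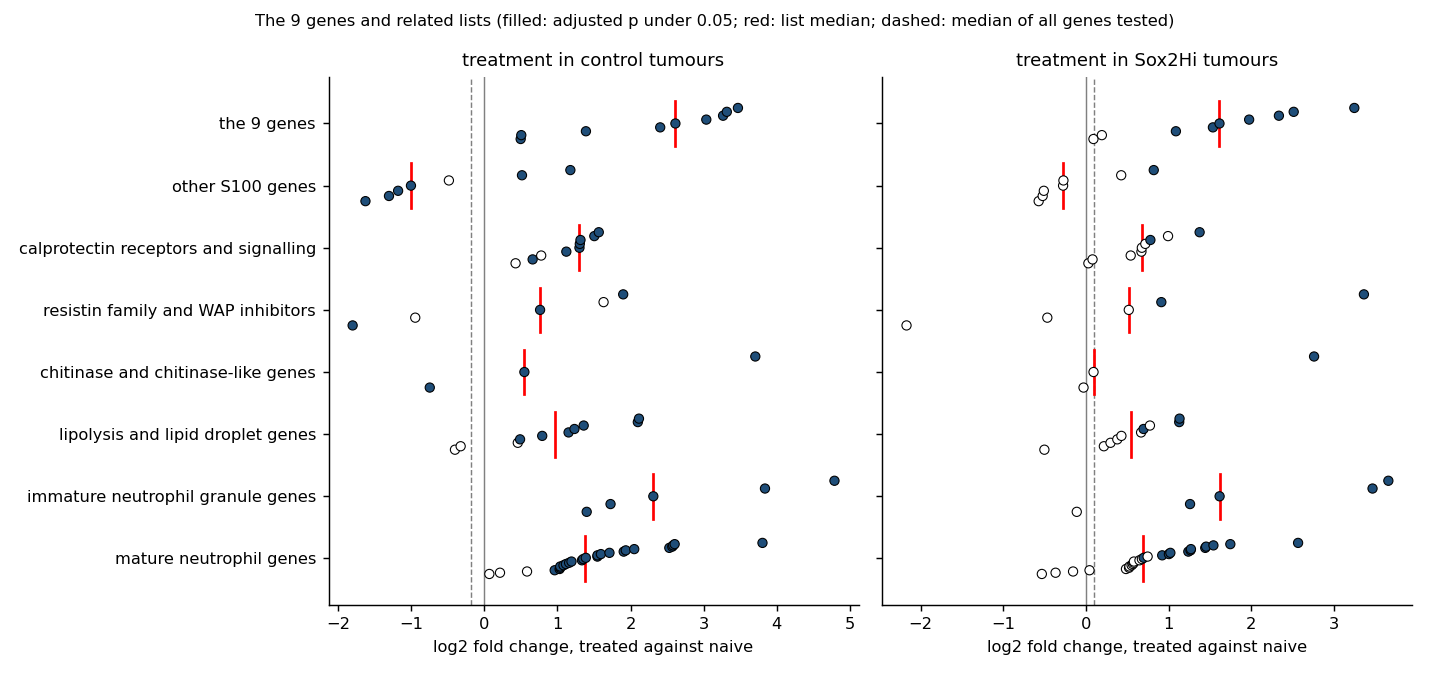
Log2 fold change with treatment (x axis) of the 9 genes and of each tested gene in 7 related lists, in control (left) and Sox2Hi (right) tumours; filled points passed an edgeR adjusted p of 0.05, red bars are medians and the dashed line is the median of all genes tested. The median of the 9 is 2.61 and 1.61, and that of the other S100 genes is -1.001 and -0.28.

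Between the naive grafts none of the 9 was called by edgeR, where 14% of the genes tested were called in either direction (11.9% lower and 2.1% higher, or 1.66% higher and 0.209% lower of 1.87% with the all-gene scaling). The differences, Sox2Hi minus control, ran from -0.72 for Chil3 to 0.09 for G0s2 on the log2 scale, with 8 of 9 below 0 (under the all-gene scaling S100a9, S100a6, S100a11 and Retnlg were above 0, at 0.018 to 0.31), and the libraries overlapped for all 9, where 21.8% of the genes tested had all Sox2Hi libraries lower. The intervals were -0.98 to 0.20 for S100a8, -0.91 to 0.20 for S100a9, -1.08 to 0.11 for Wfdc17 and -0.43 to 0.62 for G0s2. None was under an unadjusted p of 0.05, and DESeq2 also called 0. When the naive libraries were fitted by themselves with a replicate block on the title numbers that pair them, Wfdc17 (-0.45, edgeR adjusted p = 0.0421) and Chil3 (-0.62, edgeR adjusted p = 0.0381) were called lower, and limma-voom called 6 lower. These fits called 13.7% and 24.1% of all genes tested lower. Within the 3 pairs of naive libraries with the same title number, the Sox2Hi library was the lower one in every pair for 7 of the 9 genes, all but Retnlg and G0s2, as it was for 32.7% of the genes tested. Under the all-gene scaling this held for Wfdc17 alone, and for 14.5% of the same genes, so the count depends on the scaling. Among related genes Casp1 (-0.78, SE 0.16, edgeR adjusted p = 0.0136) and Lpl, a lipoprotein lipase (-0.75, SE 0.19, edgeR adjusted p = 0.0259), were lower in Sox2Hi, and Cd177, a surface protein of neutrophils (1.36, SE 0.29, edgeR adjusted p = 0.0154), and Plin3, a lipid droplet coat protein (0.72, SE 0.21, edgeR adjusted p = 0.0426), were higher. With the all-gene scaling Casp1 and Lpl were not called (edgeR adjusted p = 0.190 and 0.184).

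Between the treated grafts 6 of the 9 were lower in Sox2Hi, where 5.87% of the genes tested were called lower and 15% higher (20.9% in either direction). Among abundant genes outside the 9, 19.8% were called lower. S100a8 was lower by a log2 difference of -1.26 (SE 0.33, 95% interval -1.99 to -0.53, edgeR adjusted p = 0.0248), which is 2.39-fold, and S100a9 by -1.35 (SE 0.31, edgeR adjusted p = 0.0164), which is 2.56-fold. Retnlg differed by -1.35 (SE 0.42, edgeR adjusted p = 0.0432), Wfdc17 by -1.19 (SE 0.33, edgeR adjusted p = 0.0316), Wfdc21 by -1.32 (SE 0.41, edgeR adjusted p = 0.0447) and S100a6 by -0.63 (SE 0.19, edgeR adjusted p = 0.0393). S100a11 (-0.60, edgeR adjusted p = 0.0554), Chil3 (-0.94, 95% interval -2.04 to 0.15, edgeR adjusted p = 0.199) and G0s2 (-0.21, 95% interval -0.85 to 0.43, edgeR adjusted p = 0.641) were not called. In 8 of the 9 both Sox2Hi treated libraries were below both control treated ones, a separation that 26.3% of the genes tested show, and G0s2 overlapped.

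This comparison depended on single libraries, on the scaling and on the method. Leaving out control treated replicate 1, control treated replicate 2 or Sox2Hi treated replicate 1 left none of the 9 called, and leaving out Sox2Hi treated replicate 2 left Chil3 alone (-2.21, edgeR adjusted p = 0.0382), where 3.99%, 1.37%, 0.39% and 4.85% of all genes tested were called lower in these 4 fits. Leaving out a naive library also lost calls of S100a6 (without control naive replicate 1 or any Sox2Hi naive library), Retnlg (without Sox2Hi naive replicate 1 or 2) and Wfdc21 (without control naive replicate 1), with edgeR adjusted p between 0.0522 and 0.0595. Limma-voom called 1 of the 9 (3.89% of all genes tested were lower) and a fit of only the 4 treated libraries 3 (1.54%). The difference of Retnlg ran from -0.90 without control treated replicate 1 to -1.88 without replicate 2. Abundant genes outside the 9 had a median of -0.37, and with factors from genes of at least 100 CPM S100a9 alone was called (-0.96, edgeR adjusted p = 0.0289, where 1.14% of all genes were called lower), with S100a8 at -0.87 (edgeR adjusted p = 0.0556). The all-gene scaling called 7, with 13.7% of its genes called, 9.57% lower and 4.18% higher. Neutrophil markers moved the same way, 5 of 12 being called lower in Sox2Hi and none higher, while 1 marker of fibroblasts and endothelium and 1 of mast cells were called higher, and the part of neutrophil content was not tested. Over all genes tested 5.87% were called lower and 15% higher. The control treated libraries are also part of the treatment comparison in control tumours.

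Related genes lower in treated Sox2Hi tumours included Stfa2l1, a stefin-like protease inhibitor of neutrophils (382 and 495 CPM in control treated, 148 and 156 in Sox2Hi treated, log2 difference -1.53, SE 0.33, edgeR adjusted p = 0.0135), and Fpr1, the formyl peptide receptor (-1.44, SE 0.28, edgeR adjusted p = 0.00935). Tlr4 was at -0.70 (edgeR adjusted p = 0.0779) and Abhd5 at -0.59 (edgeR adjusted p = 0.0244). Of the 26 mature neutrophil genes 10 were lower and none higher, against 20 lower with the all-gene scaling. The count fell without Sox2Hi treated replicate 1, which leaves 1 library in that group. Over all genes tested 5.87% were called lower, as were 19.8% of the other genes of at least 100 CPM. The all-gene scaling called 9.57% of its genes lower. Wfdc2 (2.33, SE 0.44, edgeR adjusted p = 0.00879) and Chid1 (0.71, SE 0.21, edgeR adjusted p = 0.0392) were higher. Under the all-gene scaling Chid1 was not called (0.27, edgeR adjusted p = 0.447).

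The difference between the treatment responses of the grafts was tested as an interaction, Sox2Hi response minus control response. All 9 estimates were below 0, from -1.29 for Retnlg to -0.22 for Chil3 (with factors from genes of at least 100 CPM, S100a6, S100a11, G0s2 and Chil3 were above 0, at 0.013 to 0.17), and edgeR called none of the 9, where 2.84% of the genes tested were called lower and 16.9% higher (19.8% in either direction), and among abundant genes outside the 9, 8.07% were called lower. S100a9 (-0.999, 95% interval -1.88 to -0.12, edgeR adjusted p = 0.109) and Retnlg (95% interval -2.47 to -0.12, edgeR adjusted p = 0.120) were the 2 under an unadjusted p of 0.05. S100a8 was at -0.87 (95% interval -1.80 to 0.06, edgeR adjusted p = 0.183), and Chil3 had the widest interval, -1.65 to 1.201. DESeq2 called 4, the all-gene scaling 8 (27.5% of its genes, 16.2% lower and 11.3% higher) and limma-voom 0. DESeq2 called 15.2% of the 11258 genes it gave an adjusted p lower, and limma-voom called 5.82% of all genes tested lower. A replicate block on the title numbers called S100a8 (-0.83, edgeR adjusted p = 0.0414), S100a9 (-0.96, edgeR adjusted p = 0.0226) and Retnlg (-1.25, edgeR adjusted p = 0.0208), where it called 5.39% of all genes tested lower, and a block on the numbers in the descriptions called none (1.98% of all genes lower). Between the treated grafts the title numbers join libraries unlike in Ddx3y reads (8 and 3980, 6618 and 7). Their deviations from group means correlated at -0.179, so the title block may join unrelated libraries. The median of abundant genes was -0.37 under the expressed-gene scaling and -1.196 under the all-gene scaling. Relative to the first of these medians S100a9 was at -0.63, S100a8 at -0.50 and G0s2 at 0.068. Among related genes Cd177 (-1.70, edgeR adjusted p = 0.0213) and Fpr1 (-1.37, edgeR adjusted p = 0.0190), both among the 12 neutrophil markers, were called lower and Lpl (1.10, edgeR adjusted p = 0.0247) higher. Hilpda, a lipid droplet protein outside the naming rule and chosen after its value was seen, was also called lower (-0.99, edgeR adjusted p = 0.0459). Under the all-gene scaling 23 of 26 mature neutrophil genes, 8 of 10 calprotectin receptor and signalling genes and 7 of 14 lipid genes were called lower, against 2, 0 and 1 under the expressed-gene scaling.

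**Figure D4:**
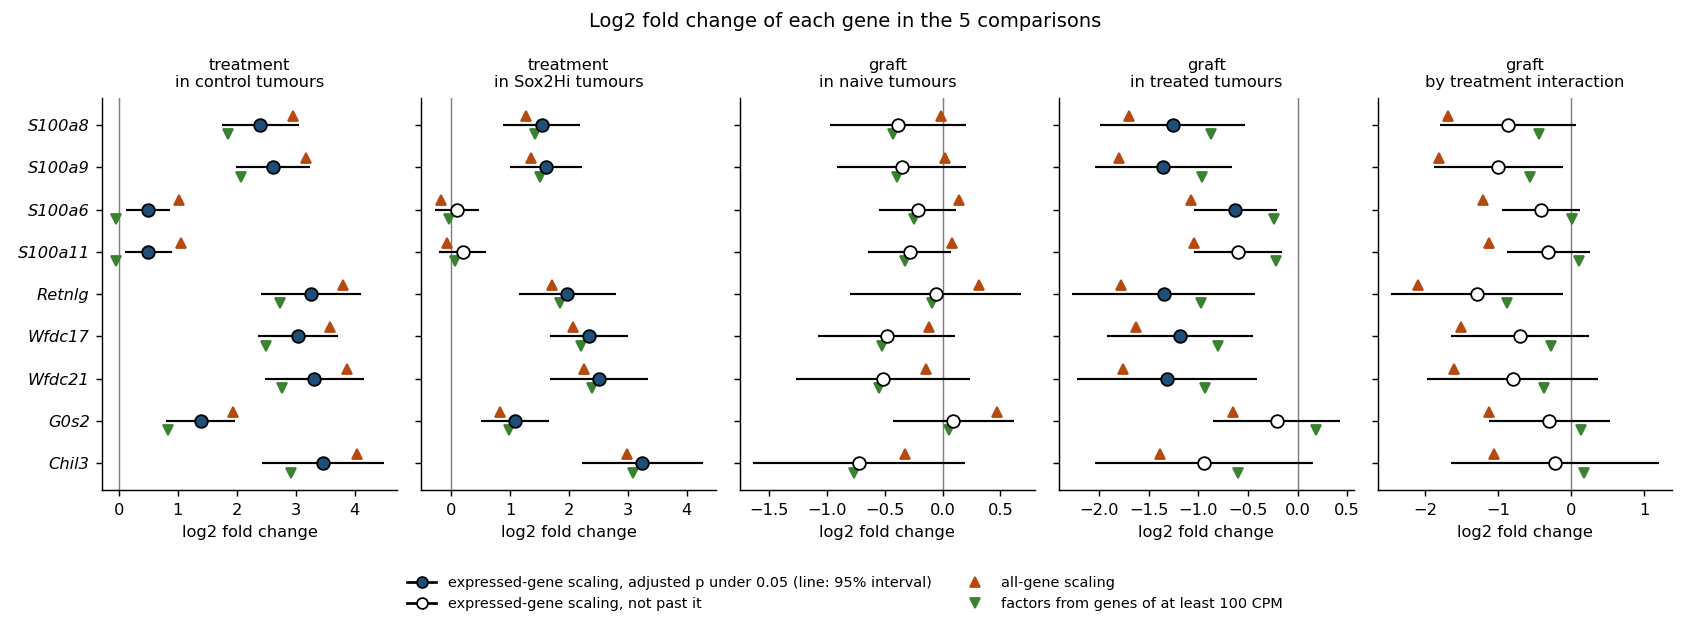
Log2 fold change (x axis, range set per panel) of the 9 genes in the 5 comparisons; circles are the expressed-gene scaling with 95% intervals, filled where the edgeR adjusted p was under 0.05, and triangles are the all-gene scaling (up) and factors from genes of at least 100 CPM (down). Filled circles number 9, 7, 0, 6 and 0 from left to right, and the up triangles lie farther from the circles in the 3 comparisons that use the control treated libraries.

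Per kb of exon, the scale on which genes can be compared, the order in control naive libraries was Wfdc17 (mean 2525 CPM per kb), S100a8 (2415), S100a9 (2256), S100a11 (749.7), S100a6 (480.2), G0s2 (386), Retnlg (293), Wfdc21 (50.8) and Chil3 (16.6). The first 3 overlapped one another across libraries, S100a6 overlapped G0s2, and G0s2 overlapped Retnlg, while S100a11, Wfdc21 and Chil3 were each apart from their neighbours in this order. In control treated libraries Wfdc17 (20701 CPM per kb) was above S100a9 (13802) and S100a8 (12793), and Retnlg (2819) had moved above S100a11 (1065), G0s2 (1011) and S100a6 (678). Sox2Hi treated libraries had the same top place for Wfdc17 (9091), followed by S100a9 (5400) and S100a8 (5343). S100a8 and S100a9 overlapped across libraries in both treated groups, so their order there is not settled.

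Likeness of pattern over the 10 libraries was measured as the root mean square difference of log2(CPM + 1) after centring each gene on its mean, where 0 is identical. S100a8 and S100a9 were the nearest (0.10), followed by S100a6 and S100a11 (0.15) and by Wfdc17 and Wfdc21 (0.18), and S100a6 and Chil3 were the farthest apart (1.55). Outside the 9, Mcemp1, a mast cell and myeloid membrane protein, was nearest to both S100a8 (0.07) and S100a9 (0.13), with Slfn1 second for both (0.08 and 0.15) and Pglyrp1 and Fpr1 in the third place. Retnlg was nearest to Fbxl5 (0.29), Mrgpra2b (0.29) and Hsd11b1 (0.31). Wfdc17 was nearest to Ifitm6 (0.17), Mrgpra2b (0.19) and Hsd11b1 (0.21), and Wfdc21 to Ifitm6 (0.20), Stfa2l1 (0.21) and Mrgpra2b (0.24). Chil3 stood with Plac8 (0.31), the interferon-inducible guanylate-binding protein gene Gbp9 (0.33) and AW112010 (0.37), G0s2 with Themis2 (0.10), Ubash3b (0.11) and Ppp1r3b (0.12), S100a6 with Cryzl1 and Ethe1 (both 0.08), and S100a11 with Cd93, Atp1b3 and Tctex1d2 (0.09 to 0.10). All points share the libraries and their scaling, so these distances are descriptions.

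**Figure D5:**
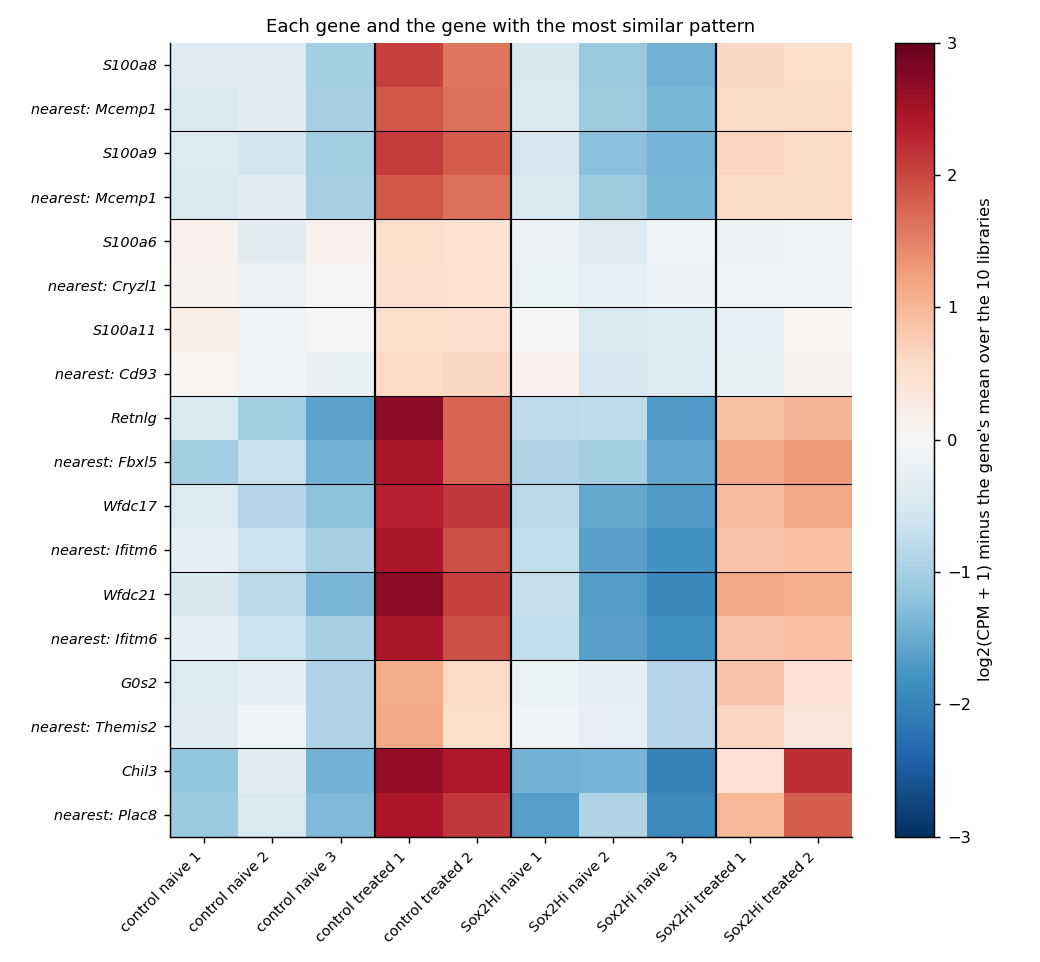
Centred log2(CPM + 1) (colour) of each of the 9 genes and, in the row under it, the gene outside the 9 with the smallest distance to it, in the 10 libraries (columns, numbered by replicate). Red columns in the control treated libraries are common to all rows, and the rows of S100a6 and S100a11 are the palest of the 9, within the range of 508 to 943 and 277 to 548 CPM.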

How the data were processed

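Libraries came from column-purified RNA and a low-input kit, per the labels' protocols. The submitters' processing notes name kallisto 0.44.0 and mm10; the annotation and strand setting are not given in the sources used here. The authors deposited estimated counts per gene as whole numbers, 1 column per library. The 96 rows that are not mouse genes held at most 0.00277% of counts and stayed out of tests. GENCODE M21 gave symbols for 55144 of 55385 genes.

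Tests used edgeR 4.0.16 (R 4.3.3), the quasi-likelihood F-test on all 10 libraries with the 4 groups as terms, on the 11274 genes averaging 5 CPM or more, TMM factors from them, and Benjamini-Hochberg adjustment over all of them (called under 0.05). SE is the log2 fold change over the square root of F. The common biological coefficient of variation was 0.212. The fit was tested on simulated data. Alternatives were the all-gene scaling (filterByExpr, 29648 genes), RLE factors, library totals, all genes with a count, DESeq2 1.42.0, limma-voom (limma 3.58.1), replicate blocks, a Ddx3y term, a fit of just the 2 groups and leaving out each library. Factors from genes of at least 100 CPM and a crossed block were added after seeing the data. The 9 genes, the marker lists and the related lists were chosen with earlier results of these data known.

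Besides the 9 genes, the text names per comparison up to 2 of the largest rises and 2 of the largest falls among called genes of 7 related lists (93 genes) averaging 10 CPM or more, the partners Tlr4, Pnpla2, Abhd5 and Chil4, and the 3 genes nearest in pattern, of which 1 is not reported here. Mpo, Elane, Prtn3, Ctsg, Ms4a3, Fcnb, Il1r2, Hdc, Cd36, Nlrp3, Ly96, Ltf, Lcn2, Cebpe, Hilpda, Chil1, Retnla and Ly6g fall outside that rule and were chosen after their values were seen. The title numbers paired the naive libraries (correlations of deviations from group means 0.334, 0.333 and 0.422), a hint from the data, as no label explains the numbers. Naive libraries of the same title number were also alike in Ddx3y reads (4 and 6, 3854 and 2814, 1436 and 1007). Treated ones were not (8 and 3980, 6618 and 7). For 3 of the 4 treated libraries the number in the sample description, which is also the column name, differs from the title number, so blocks were fitted on each numbering. Over 8 replicate pairs, chi-square per degree of freedom was at least 12.5, well over sampling noise. Genes of 1421 receptors taken as silent gave a background of at most 0.554% of the reads of any of the 9 genes, both summed over the 10 libraries. The background was 2.51 and 2.82 counts per kb in control treated libraries and 4.51 to 8.89 in the others. Shares within single libraries were not computed. They would be larger where a gene had few reads, as Chil3 had in naive libraries. Words of 31 bases shared with other transcripts were counted in GENCODE M21.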

Additional observations from a re-analysis of the deposited data

Results flagged for a closer look

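Among related genes the treatment response differed between the grafts by the interaction test for 4. They were 2 of 10 lipid genes and 2 of 26 mature neutrophil genes, with none in the other lists. The interaction test called 19.8% of all genes tested, so these counts are near or below that share. No lipid gene was called without Sox2Hi naive replicate 2, and 1 mature neutrophil gene without control naive replicate 1. Hilpda, chosen after its value was seen, was at -0.99 (edgeR adjusted p = 0.0459). Cd177 (log2 -1.70) went from 5.93 to 10.1 CPM in control naive to 11.7 and 22.4 in control treated, and from 16.8 to 23.8 in Sox2Hi naive to 10.96 and 15.96 in Sox2Hi treated. Fpr1 (-1.37) went from 114 to 167 CPM to 813 and 957 in control and from 104 to 187 to 295 and 355 in Sox2Hi tumours. Lpl (1.10) went from 27.1 to 46.2 CPM to 24.7 and 29.8 in control and from 19.8 to 23.1 to 32.6 and 36.6 in Sox2Hi tumours, and with the all-gene scaling its interaction was 0.26 (edgeR adjusted p = 0.452).

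Reads of the tdTomato row, which no comparison uses, were present in every library, from 135 to 514 reads.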

How the results depend on the processing

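Treatment calls among the 9 genes were 8 to 9 in control and 3 to 7 in Sox2Hi tumours when 1 library was left out, and 7 to 9 and 6 to 7 under the other alternatives. Between the naive grafts 0 were called, 6 by limma-voom and 2 with the naive replicate block. Between the treated grafts 6 were called, 0 to 7 without 1 library, 3 with library totals or only the 2 groups, and 1 by limma-voom or with factors from genes of at least 100 CPM. The interaction called 0, but 8 with the all-gene scaling or all genes with a count, 4 by DESeq2, 3 with the title replicate block and 0 to 1 without 1 library. The share of S100a8 in calprotectin reads differed by -2.48 percentage points, -3.18 to -1.78 without 1 library. The block by title number called 8, 7, 0 and 7 in the other 4 comparisons. The crossed pairing of the treated libraries, whose own pairing correlated at -0.179, called 3 between the treated grafts. The highest count between the treated grafts was 8. With all genes with a count S100a11 and Chil3 were called there too (edgeR adjusted p = 0.0161 and 0.0418). S100a11 was also called with RLE factors (edgeR adjusted p = 0.0286) and by DESeq2 (adjusted p = 0.00413). Shares over all genes were not computed for library totals, all genes with a count, the crossed block or the 4 title-block comparisons. Those counts stand without a background.

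Signs turned as follows (log2), and the cause was not tested. S100a6 and S100a11 with treatment in control tumours were -0.014 and -0.0021 with library totals and -0.049 and -0.041 with factors from genes of at least 100 CPM. In Sox2Hi tumours S100a6 was -0.18 with the all-gene scaling, -0.0085 with RLE and -0.0086 with DESeq2, -0.26 with library totals, -0.28 with all genes with a count, -0.036 with factors from genes of at least 100 CPM and -0.024 to 0.14 without 1 library, and S100a11 was -0.074, -0.16 and -0.17 with the all-gene scaling, library totals and all genes with a count and -0.034 to 0.36 without 1 library. Between naive grafts the all-gene scaling and all genes with a count gave 0.018 and 0.12 for S100a9, 0.14 and 0.22 for S100a6, 0.079 and 0.17 for S100a11 and 0.31 and 0.41 for Retnlg, and the latter 0.096 for S100a8. There Retnlg was 0.023 with RLE or DESeq2, 0.074 with library totals, 0.0056 with the naive replicate block and -0.30 to 0.27 without 1 library, and G0s2 -0.078 to 0.30 without 1 library. Between treated grafts G0s2 was 0.11 with library totals and 0.19 with factors from genes of at least 100 CPM. With these factors the interaction was 0.013 for S100a6, 0.10 for S100a11, 0.13 for G0s2 and 0.17 for Chil3, and Chil3 ran from -1.58 to 0.41 without 1 library. With 2 treated libraries a graft, the intervals limit what the interaction can show.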
